A study of Homo sapiens with 50 samples.

Results

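The hairpins described here were those against writers of methylation on lysine 4 of histone H3 (H3K4), against the subunits that work with these enzymes, and against menin. They were taken by gene name from a table of tags per hairpin: every row naming a single gene that started with MLL, SETD1 or SMYD, or was MEN1, CXXC1, PAXIP1, WDR5, ASH2L, RBBP5, DPY30, C16orf53 or SETD7. This gave 86 of 3443 hairpins, against 18 genes. SETD1B and DPY30 were not analysed here. The rule asked for names, not for H3K4 activity, so it also took the whole SMYD family, whose members methylate several histone and other proteins.

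The samples were genomic DNA of IMR90, a line of human lung fibroblasts with a limited replicative lifespan, grown at 3% oxygen. Cells were infected with pooled lentiviruses that express short hairpin RNAs (shRNAs), each designed to lower the transcript it matches, at a multiplicity of infection of 0.3. Integrated hairpins were counted by sequencing at population doubling (PD) 40, 45, 50, 55 and 60, where PD40 was the proliferating control and PD60 the senescent end of the culture. All 5 groups carried the hairpin library, and each came from 10 samples titled Paired Pool 1 to 10. The library was held in 5 initial pools, combined into 10 paired pools with each initial pool present 4 times. For each PD 1 column of tags was used. The screen was set up to find genes that limit lifespan: cells whose hairpin lowers such a gene should take a growing share of the culture.

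H3K4 methylation marks promoters and enhancers of active genes. The enzymes MLL, MLL2, MLL3, MLL4 and SETD1A are inactive alone and work on a shared core of WDR5, RBBP5, ASH2L and DPY30. Other subunits belong to some complexes only: menin, the product of MEN1 and a tumour suppressor of endocrine tissue, ties the MLL enzyme to its target genes, CXXC1 brings the SETD1 enzymes to unmethylated CpG-rich DNA, and PAXIP1 works with C16orf53. The table uses older names. MLL is now KMT2A, MLL3 is KMT2C and C16orf53 is PAGR1 in RefSeq, while MLL2 and MLL4 are each listed there as an older name of both KMT2B and KMT2D, so the names of the table were kept. Hairpins are known here by their catalogue numbers (TRCN), and their sequences were not used here.

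The columns held 8270745 to 11505688 tags, so 1 tag was worth 0.0869 to 0.121 CPM (tags per 1000000 tags of the column). A hairpin at 0 tags could still have had up to 3 tags by counting error alone, which is 0.363 CPM at PD60. Levels are CPM, folds are ratios of CPM to PD40 with exact 95% counting intervals, and log2 fold changes are on the scale of CPM plus 1, which understates the losses of hairpins that started low. With 1 column per PD no value measures spread between cultures, and intervals and floors cover counting error only. Means and SDs over the hairpins of a gene describe hairpins that share a target, not replicates. Tags were amplified by PCR and are not independent molecules. Most hairpins of the library were lower at later times relative to the column total, so the members' counts are set beside those of all hairpins.

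As a group the 86 hairpins followed the library, and the exceptions were hairpins against MEN1 and SETD7. At PD60, 3 of 86 were over 2-fold higher, beside 2.28% of all hairpins, 82 were over 2-fold lower, beside 95.3%, and 33 were at 0 tags, beside 44.1%. Their median log2 fold change was -5.52 and that of all hairpins was -5.86. The 3 higher hairpins were TRCN0000009849 and TRCN0000040140 against MEN1 and TRCN0000078631 against SETD7. Another MEN1 hairpin, TRCN0000010377, was within 2-fold. MEN1 was 1 of 7 genes, among 631 with at least 3 hairpins, that had 2 or more hairpins over 2-fold higher. It had 8 hairpins, against 2 to 5 for the other member genes, and so more chances to reach this count.

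The same counts were taken at each earlier time. At PD45, 3 of 86 were over 2-fold higher, beside 5.73% of all hairpins, and 48 were over 2-fold lower, beside 63.2%. At PD50 it was 3 higher, beside 4.94%, and 71 lower, beside 81.9%. At PD55 it was 0 higher, beside 2.92%, and 81 lower, beside 91.7%. Hairpins at 0 tags numbered 1 at PD45, beside 1.42%, 7 at PD50, beside 9.47%, and 17 at PD55, beside 18.4%. Over all later columns 6 of 86, against 4 genes, were over 2-fold higher at least once, beside 8.54%. Members' shares were near those of all hairpins at every time.

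Together the 86 hairpins held 3.14% of the PD40 tags, then 2.90% at PD45, 1.82% at PD50, 0.925% at PD55 and finally 2.10% at PD60. Without MEN1 and SETD7 the series was 2.42%, 1.88%, 0.662%, 0.176% and 0.0257%. Of the 173702 tags of the group at PD60, 80270 belonged to the SETD7 hairpin TRCN0000078631 and 76046 to the MEN1 hairpin TRCN0000009849. The late share of the group therefore rested on these hairpins.

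Starting level differed widely among members and went with the outcome. At PD40 the members ran from 15 tags (MEN1 TRCN0000040142) to 46295 tags (SMYD5 TRCN0000154724), and 27 of 86 lay in the lowest quintile of the library, which ran up to 323 tags. Of these 27, 20 were at 0 at PD60, beside 84.5% of all hairpins in that quintile. In the highest quintile, from 2998 tags, 0 of 19 members were at 0, beside 1.45%. At PD45, 11 of these 19 were already over 2-fold lower, beside 31.9% of all hairpins in the highest quintile. They were 3 each against CXXC1 and SETD1A, 2 each against MEN1 and SMYD5 and 1 against MLL2.

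Among the subunits that belong to some complexes only, menin and CXXC1 stood at opposite ends. The mean log2 fold change of the 8 MEN1 hairpins at PD60 was -2.34 (SD 3.11), rank 7 from the top of 631 gene means. That of the 5 CXXC1 hairpins was -8.40 (SD 0.17), rank 629. The median gene mean was -5.59, with 5% of genes under -7.10 and 5% above -3.36.

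MEN1 hairpin TRCN0000009849 had 3699.8 CPM at PD40, then 7633 at PD45, 9414 at PD50, 6421 at PD55 and finally 9195 at PD60. It was at its higher level from PD45 on, and stayed there at PD60 with 2.49 times its PD40 level (95% counting interval 2.45 to 2.52). It was rank 27 of the library at PD60 and rank 24 at PD40. TRCN0000040140 had 543 CPM at PD40, then 862 at PD45, 847 at PD50, 690.4 at PD55 and finally 1174 at PD60. Its PD60 level was 2.16 times that at PD40 (2.09 to 2.24), and it stood at rank 69 at PD60 and 406 at PD40. Both hairpins dipped at PD55 relative to PD50, and at no time was either under its PD40 level.

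The other 6 MEN1 hairpins did not share this course. TRCN0000010377 had 1176 CPM at PD40, then 410.01 at PD45, 477 at PD50, 167 at PD55 and finally 623 at PD60, 1.89-fold lower than at PD40 (1.83 to 1.95). It was low at PD55 and 3.74 times as high at PD60 (3.54 to 3.94), so its place within 2-fold rested on the last column. TRCN0000010378 had 62.1, 103, 176, 27.9 and 19.7 CPM at the 5 times: it peaked at PD50, 2.84 times its PD40 level (2.57 to 3.14), and was 3.15-fold lower at PD60. TRCN0000040141 had 397, 144, 67.9, 48.1 and 24.9 CPM and was 15.9-fold lower at PD60 (13.8 to 18.4). In 2 further hairpins the losses were larger still. TRCN0000040139 had 115 CPM at PD40, then 21.2 at PD45, 2.24 at PD50, 0.174 at PD55 and finally 0 tags at PD60, at least 317-fold lower. TRCN0000040138 had 1 tag at PD60, against 776 at PD40. TRCN0000040142 had 0 tags at PD60, against 15 at PD40, too few to follow. Of the MEN1 hairpins 2 were thus higher, 1 was within 2-fold and 5 were lower at PD60.

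All 5 CXXC1 hairpins were lost from a high start. TRCN0000155371 had 610 CPM at PD40, then 377 at PD45, 79.0 at PD50, 5.13 at PD55 and finally 0.605 at PD60, 1009-fold lower (432 to 3108). TRCN0000155409 had 567, 98.4, 47.5, 1.48 and 0.725 CPM and was 781-fold lower at PD60 (359 to 2130). TRCN0000152721 had 482, 50.9, 8.96, 2.09 and 0.363 CPM, a PD60 to PD40 ratio of 0.000752 (0.000155 to 0.0022). The 3 differed at PD45, where TRCN0000155371 was within 2-fold of PD40 and TRCN0000152721 was 9.47-fold lower.

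CXXC1 TRCN0000156075 had 392 CPM at PD40, then 47.3 at PD45, 8.73 at PD50, 1.39 at PD55 and finally 0.121 at PD60. TRCN0000155700 had 313, 23.0, 0.590, 0.782 and 0.121 CPM. Each ended at 1 tag, with PD60 to PD40 ratios of 0.000309 (7.81e-06 to 0.00172) and 0.000387 (9.78e-06 to 0.00216). At PD45 4 of the 5 CXXC1 hairpins were over 2-fold lower, and at PD50 all 5 were. The 5 held 1 to 6 tags at PD60, under the pseudocount, against 2698 to 5260 at PD40. The small SD depended on that pseudocount: with a pseudocount of 0.1 CPM it was 0.55 around a mean of -10.09. Among the 5 members with the lowest log2 fold change at PD60, 4 were these CXXC1 hairpins.

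The remaining one was MLL2 TRCN0000013139, with 364 CPM at PD40, then 44.4 at PD45, 2.36 at PD50, 0.782 at PD55 and finally 0.242 at PD60. Its ratio at PD60 was 0.000665 (8.05e-05 to 0.0024).

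The partners PAXIP1 and C16orf53 had unlike means at PD60, and the difference between them was not tested. Their hairpins also started apart, at a median of 1192.5 tags at PD40 for PAXIP1 against 576 for C16orf53. Over all hairpins, the median log2 fold change at PD60 was -5.75 in quintile 2 of PD40 tags and -6.62 in quintile 3. PAXIP1, a BRCT-domain protein that also takes part in the response to DNA damage, had 4 hairpins with a mean of -7.00 (SD 0.89), rank 592. They held 0 or 1 tag at PD60, against 499 to 2302 at PD40. At PD45, 2 of the 4 were over 2-fold lower and 2 were within 2-fold, and at PD50 all 4 were lower. The most abundant, TRCN0000147957, had 267 CPM at PD40, then 210.0 at PD45, 40.7 at PD50, 14.6 at PD55 and finally 0 tags at PD60, at least 736-fold lower than at PD40.

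C16orf53 encodes a small protein that binds PAXIP1, and its 5 hairpins had a mean of -4.68 (SD 1.53), rank 131. TRCN0000140990 had 176 CPM at PD40, then 377 at PD45, 236 at PD50, 28.6 at PD55 and finally 2.30 at PD60. Its PD45 level was 2.14 times that at PD40 (2.02 to 2.28), and at PD60 it was 76.7-fold lower. TRCN0000140081 took the same course, with 102, 176, 92.3, 14.7 and 0.967 CPM. In these 2 hairpins a higher level at PD45 was thus followed by loss, and the other 3 were lower than at PD40 at every time. TRCN0000139506 lost least, with 25.3 CPM at PD40, then 20.8 at PD45, 7.19 at PD50, 2.00 at PD55 and finally 3.99 at PD60.

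Hairpins against the shared core subunits were all lower at PD60. All 12 were over 2-fold lower, beside 95.3% of all hairpins, and 7 were at 0 tags, beside 44.1%. Their median log2 fold change was -5.17, beside -5.86. These counts were near those of the library. WDR5, the subunit that joins the enzyme to the rest of the core, had the lowest starting level, with 55 to 848 tags at PD40. At PD45 its mean was -2.58 (SD 1.11), rank 549 of 631, against a median gene mean of -1.63. TRCN0000118049 had 29.7, 1.37, 0.354 and 0.0869 CPM up to PD55 and 0 tags at PD60, 21.7-fold lower at PD45 (12.2 to 42.6) and at least 81.8-fold lower at PD60. TRCN0000118050 had 98.3, 54.3, 7.67, 1.39 and 0.242 CPM, a PD60 to PD40 ratio of 0.00246 (0.000297 to 0.00891). It alone of the 5 WDR5 hairpins was within 2-fold at PD45.

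At PD60 the WDR5 mean was -4.21 (SD 1.42), rank 79. TRCN0000118047, with 6.38 CPM at PD40, 0.114 at PD45 and 0 tags at the 3 later times, set the upper end at -2.88. With a pseudocount of 0.1 CPM the rank was 219, and with TMM scaling, described with the trend, it was 328.

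ASH2L, a subunit that activates the enzyme together with RBBP5, had 1 of 5 hairpins over 2-fold lower at PD45. WDR5 had 4 of 5, beside 63.2% of all hairpins. WDR5 hairpins started lower, at a median of 109 tags at PD40 against 869 for ASH2L. In the lowest quintile of PD40 tags, 90.8% of all hairpins were over 2-fold lower at PD45. The difference between these genes was not tested. The ASH2L mean was -0.66 (SD 0.81) at PD45, rank 82, and -5.92 (SD 1.14) at PD60, rank 403. TRCN0000019276 had 238 CPM at PD40, then 258 at PD45, 155 at PD50, 78.1 at PD55 and finally 10.9 at PD60, 21.9-fold lower (17.7 to 27.3). TRCN0000019277 had 228 and 247 CPM at PD40 and PD45 but 26.7 at PD50, 2.17 at PD55 and finally 0.484 at PD60, 471-fold lower (184 to 1729). The pair were alike at PD45 and apart from PD50 on.

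RBBP5, a WD-repeat subunit, had only 2 hairpins and they went apart. TRCN0000034410 had 271 CPM at PD40, then 306 at PD45, 229 at PD50, 93.5 at PD55 and finally 25.5 at PD60, 10.6-fold lower (9.22 to 12.3). TRCN0000034413 had 101, 7.29 and 1.77 CPM up to PD50 and 0 tags from PD55 on, 13.9-fold lower at PD45 (10.8 to 18.2) and at least 279-fold lower at PD60.

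Of the hairpins against catalytic subunits all 24 were over 2-fold lower at PD60, near the 95.3% of all hairpins. At 0 tags were 6, beside 44.1%, and the median was -5.88, beside -5.86. They differed in their earlier levels. SETD1A, which provides much of the trimethylated H3K4 of the cell, had the most abundant ones, with 4430 to 30839 tags at PD40. TRCN0000150815 had 746 CPM at PD40, then 843 at PD45, 896 at PD50, 423 at PD55 and finally 28.2 at PD60. It was above its PD40 level until PD50 and 26.5-fold lower at PD60 (23.2 to 30.3). TRCN0000152168 had 3575, 2550, 730.2, 134 and 23.1 CPM and was 155-fold lower at PD60 (134 to 179).

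Over the 5 SETD1A hairpins the mean was -1.71 (SD 1.13) at PD50, rank 72, and -6.49 (SD 1.20) at PD60, rank 535. The rank at PD60 depended on the scale: it was 159 with a pseudocount of 0.1 CPM, 625 with 10 CPM and 122 with TMM scaling. SETD1A and CXXC1 encode subunits of one complex, and at PD60 SETD1A hairpins held 10 to 239 tags and CXXC1 hairpins 1 to 6. At PD40 SETD1A hairpins had 4430 to 30839 tags and CXXC1 hairpins 2698 to 5260. The difference between these genes was not tested.

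MLL2 hairpins were low early, with a mean of -2.39 (SD 1.13) at PD45, rank 515, and of -4.64 (SD 1.20) at PD50, rank 602. TRCN0000013140 had 266 CPM at PD40, then 27.0 at PD45, 17.0 at PD50, 10.2 at PD55 and finally 10.8 at PD60, 9.84-fold lower at PD45 and 24.7-fold lower at PD60. TRCN0000013138 was still at 239 CPM at PD45, against 342 at PD40, and at 17.7 at PD50. MLL2 ended with a mean of -6.15 (SD 1.98), rank 463, which was 213 with TMM scaling and 245 with a pseudocount of 0.1 CPM.

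MLL3 hairpins were close to their starting level at PD45, with a mean of -0.46 (SD 0.44), rank 50. TRCN0000008744 had 294 CPM at PD40, then 217 at PD45, 203 at PD50, 110 at PD55 and finally 39.7 at PD60, 7.40-fold lower (6.59 to 8.33). TRCN0000008742 had 7.30, 8.88, 2.12, 4.61 and 2.78 CPM and was 2.63-fold lower at PD60 (1.61 to 4.44), the smallest loss among the 24 catalytic subunit hairpins. The other 3 MLL3 hairpins ended at 1 to 9 tags, and the mean at PD60 was -4.95 (SD 2.81), rank 175.

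MLL, an enzyme that menin binds, and MLL4 had few tags to begin with. Of the 4 MLL hairpins 3 were at 0 tags at PD60 and 1 at 1 tag, against 57 to 778 tags at PD40, with a mean of -4.55 (SD 1.55), rank 110. That rank was 377 with TMM scaling, 286 with a pseudocount of 0.1 CPM and 55 with 10 CPM. MLL TRCN0000005957 had 90.2 CPM at PD40, then 53.3 at PD45, 7.43 at PD50, 0.348 at PD55 and finally 0 tags at PD60, at least 249-fold lower. MLL TRCN0000005954 had 57 tags at PD40, then 29 at PD45, 63 at PD50, 5 at PD55 and finally 1 at PD60, a PD60 to PD40 ratio of 0.0183 (0.000455 to 0.106). The 5 MLL4 hairpins held 0 to 10 tags at PD60, against 170 to 1863 at PD40, with a mean of -5.26 (SD 0.87), rank 241. No MLL hairpin was over 2-fold higher than at PD40 at any time, unlike 3 of the 8 MEN1 hairpins, beside 8.54% of all hairpins. MLL hairpins also started lower, at a median of 184 tags at PD40 against 2207 for MEN1. In the lowest quintile of PD40 tags, 0.151% of all hairpins were over 2-fold higher at PD60. The difference between MLL and MEN1 was not tested.

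SETD7, which adds a single methyl group to H3K4 in vitro and methylates other proteins in cells, had the largest gain of the 86. TRCN0000078631 had 335 CPM at PD40, then 258 at PD45, 181 at PD50, 94.6 at PD55 and finally 9705 at PD60. It was lower in each column up to PD55, and then 103 times as high at PD60 as at PD55 (96.7 to 109). Its PD60 level was 29.0 times that at PD40 (27.9 to 30.1), rank 26 of the library. Relative to the column total, the gain rested on the last column alone.

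The other 4 SETD7 hairpins were lower at PD60: TRCN0000078628 had 506 CPM at PD40, then 642 at PD45, 364 at PD50, 41.9 at PD55 and finally 3.75 at PD60, and the other 3 were at 0 tags. The SETD7 mean was -3.83 (SD 4.98), rank 53. Without TRCN0000078631 it was -6.00.

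Among the SMYD family all 23 hairpins were over 2-fold lower at PD60, near the 95.3% of all hairpins. SMYD1 is a muscle protein, SMYD2 methylates p53 and RB1 among other targets, SMYD3 methylates a kinase of the MAP kinase pathway, and SMYD4 and SMYD5 are less studied. SMYD4 TRCN0000134109 had 115 CPM at PD40, then 277 at PD45, 309 at PD50, 80.6 at PD55 and finally 6.89 at PD60. It was 2.69 times its PD40 level at PD50 (2.498 to 2.895) and 16.7-fold lower at PD60 (12.8 to 22.2). SMYD5 TRCN0000154724 had 5367 CPM at PD40, rank 13 of the library, 8374 at PD45, 1851 at PD50, 309 at PD55 and finally 23.9 at PD60, 224-fold lower (195 to 259). Both were above their PD40 level at PD45 and far under it at PD60.

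On the scale used first SMYD5 had the lowest mean of the family, -7.14 (SD 0.87, 4 hairpins), rank 605. That rank was 254 with TMM scaling and 316 with a pseudocount of 0.1 CPM. On both of these scales SMYD1 was lower, at -2.04 against -0.90 with TMM scaling and -8.17 against -7.67 with 0.1 CPM. SMYD5 hairpins started at a median of 10350.5 tags at PD40, against 242 to 499.5 for the other SMYD genes. Differences within the family were not tested. The means were -5.08 (SD 0.78) for SMYD1, -5.21 (SD 0.98) for SMYD2, -4.70 (SD 1.13) for SMYD3 and -5.08 (SD 0.98) for SMYD4. At PD45 SMYD3 was the lowest of the family, at -2.22 (SD 1.14), from a median of 242 tags at PD40. The median of all hairpins in the lowest quintile of PD40 tags was -2.81 at PD45.

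A hairpin outside the group, TRCN0000155095, named both SMYD5 and TELO2, which encodes a factor needed for stable PI3K-related kinases. It had 6181 CPM at PD40, then 8571 at PD45, 4588 at PD50, 4194 at PD55 and finally 42021 at PD60, 6.80 times its PD40 level (6.74 to 6.86). None of the 4 hairpins naming SMYD5 alone was higher at PD60.

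The linear trend of log2 level per doubling over the 5 columns was fitted across all hairpins with edgeR. Its error is departure from a straight line, not spread between cultures. With TMM scaling, which sets each column against its typical hairpin and not its total, 10 of 79 tested members rose, beside 11.4% of all hairpins, and 20 fell, beside 30.5%. Scaled to total counts, 1 rose, beside 0.866%, and 68 fell, beside 85.9%. The direction thus followed the scaling for many hairpins.

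Of the 10 that rose with TMM scaling, 5 were against MEN1, 2 against MLL3 and 1 each against RBBP5, C16orf53 and SETD7. Of the other MEN1 hairpins TRCN0000040139 fell (slope -0.31, edgeR adjusted p 0.01147, and 0.05531 without PD40), TRCN0000040138 had a slope of -0.18 (0.07081) and TRCN0000040142 was too low to test. MEN1 TRCN0000009849 had a slope of 0.40 and TRCN0000040140 of 0.39 log2 per doubling, each with an edgeR adjusted p of 0.003929. Scaled to total counts their slopes were 0.04 each, with edgeR adjusted p of 0.5305 and 0.5762. MEN1 TRCN0000040141 rose with TMM scaling, with a slope of 0.15 and an edgeR adjusted p of 0.03807. It fell with total counts, with -0.19 and 0.01115. The 5 called MEN1 hairpins thus had a rising trend with TMM scaling, while none of them was called rising with total counts. Even so, TRCN0000009849 and TRCN0000040140 held a larger share of the tags in each later column than in the PD40 column.

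The other TMM calls were TRCN0000010377 (edgeR adjusted p 0.007096) and TRCN0000010378 (0.02481) against MEN1, TRCN0000008742 (0.008576) and TRCN0000008744 (0.01537) against MLL3, and TRCN0000034410 against RBBP5 (0.03573). TRCN0000139506 against C16orf53 rose with TMM scaling (edgeR adjusted p 0.02482) and fell with total counts (slope -0.16, 0.01816). With any 1 column left out the TMM calls of MEN1 TRCN0000009849, TRCN0000040140 and TRCN0000010377, of MLL3 TRCN0000008742 and of SETD7 TRCN0000078631 held. The other 5 did not. MEN1 TRCN0000010378 was lost without PD40, PD45 or PD55 (edgeR adjusted p 0.06573 to 0.09603), and TRCN0000040141 without PD45, PD50 or PD55 (0.09012 to 0.1659). MLL3 TRCN0000008744 was lost without PD40, PD45 or PD55 (edgeR adjusted p 0.05085 to 0.0807). RBBP5 TRCN0000034410 was lost without PD40, PD45, PD50 or PD55 (edgeR adjusted p 0.07881 to 0.1515), and C16orf53 TRCN0000139506 without PD40, PD45, PD50 or PD60 (0.05202 to 0.3031).

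SETD7 TRCN0000078631 was the member that rose on both scales, with slopes of 0.58 and 0.23 and edgeR adjusted p of 0.004745 with TMM and 0.01208 with total counts. As its CPM was lower in each column up to PD55, a straight line describes it poorly with total counts. With TMM scaling and without PD60 its slope was still 0.22 (edgeR adjusted p 0.006168). Of the CXXC1 hairpins 3 fell with TMM scaling (edgeR adjusted p 0.0169 to 0.03234), and all 5 fell with total counts. The 3 TMM calls were lost without PD50 (edgeR adjusted p 0.05817 to 0.1005) and without PD55 (0.05015 to 0.0969). Without PD40, TRCN0000152721 and TRCN0000156075 were lost too (edgeR adjusted p 0.4346 and 0.1802), and TRCN0000155700 was not tested.

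With TMM scaling the gene mean of MEN1 at PD60 was 2.93 (SD 4.57), rank 12 of 631, and that of CXXC1 was -3.40 (SD 0.61), rank 623. With pseudocounts of 0.1 and 10 CPM, MEN1 stood at ranks 9 and 22 and CXXC1 at 628 and 623. PAXIP1 stood at 629 with TMM scaling, 627 with 0.1 CPM and 494 with 10 CPM. C16orf53, MLL3, SETD1A and SETD7 also had means above 0 with TMM scaling, at 0.40, 0.36, 0.10 and 0.55, where the median of all hairpins was -1.87. On these scales MEN1 stayed within ranks 7 to 22 and CXXC1 within 623 to 629. Ranks of other members moved more, among them those given above for MLL, MLL2, SETD1A, SMYD5 and WDR5. With TMM scaling and with 10 CPM, SMYD1 stood at 456 and 87, against 207 on the scale used first, SMYD3 at 239 and 83, against 132, MLL4 at 369 and 150, against 241, and MLL3 at 103 and 303, against 175.

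Enzymes that remove H3K4 methylation were taken as a list of names, of which 6 genes were in the table with 29 hairpins. At PD60, 2 were over 2-fold higher, beside 2.28% of all hairpins, 27 were lower, beside 95.3%, and 15 were at 0, beside 44.1%. The median was -6.34, beside -5.86. Both higher hairpins were against AOF2 (KDM1A), the flavin-dependent demethylase, with a mean of -2.08 (SD 5.43, 5 hairpins). The demethylases of the JARID1 family had means from -7.14 (JARID1C) to -5.64 (JARID1B), and FBXL10 stood at -5.53.

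Of the other subunits and partners of H3K4 methyltransferase complexes, 5 genes had hairpins. At PD60, 1 of their 25 hairpins was over 2-fold higher, beside 2.28% of all hairpins, and 24 were lower, beside 95.3%. The median was -5.46, beside -5.86, so the list was near the library. The higher one was against MYST1 (KAT8), the histone H4 lysine 16 acetyltransferase that shares WDR5 with these complexes, whose mean was -3.26 (SD 4.26). HCFC1, UTX, PSIP1 and WDR82 had means from -5.64 to -5.19, and PSIP1, which links menin and MLL to chromatin, stood at -5.35 (SD 2.54).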

How the data were processed

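The table deposited by the authors held raw tag counts for each hairpin (whole numbers that sum to different totals), with 1 column per PD. Reads were handled with Bowtie 1.0.1, per the submitters' processing notes. Not given in the sources used here: its settings, its reference, and how 10 paired pools became 1 column. A column was taken as the authors' pooled value over the 10 samples of a PD.

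Counts were divided by column totals (CPM). Log2 fold changes used a pseudocount of 1 CPM and a minimum of 10 counts at one of the compared times; ratio intervals were exact conditional intervals, and 0 tags were set to a floor of 3 for bounds. The trend used R 4.3.3 with edgeR 4.0.16 (quasi-likelihood test, scaling by TMM, Benjamini-Hochberg over all hairpins tested, adjusted p under 0.05, at least 10 counts in at least 2 columns). DESeq2 1.42.0 was an alternative. The trend and the ratio intervals were also run on simulated data. For the trend a minority of hairpins was changed, as many up as down, whereas here most hairpins were lower at later times. For the intervals the simulated counts held counting error only. These runs therefore cannot show how either method behaves on data like these. Python 3.11.15, numpy 2.4.6, pandas 2.3.3 and scipy 1.17.1 were used. Gene means were ranked among 631 genes with at least 3 hairpins naming that gene alone. Current symbols came from RefSeq (GRCh38.p14).

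Members, gene lists and the rule for named hairpins were chosen with earlier results of these data known. The rule took hairpins over 2-fold higher than PD40 at any time, those rising in the trend, the 5 lowest, and the highest and lowest of MEN1, CXXC1, MLL, WDR5, ASH2L and RBBP5. Other hairpins named were chosen after their values were seen.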

Additional observations from a re-analysis of the deposited data

How the results depend on the processing

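No paired analysis was possible because the 10 paired pools of a PD share a single column. Leaving out names that start with MLL without being an MLL gene was not run, since no member had such a name. With 1 column per PD, hairpins under about 100 tags at PD40 had little room to fall. Causes of the changes below were not tested.

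The count of 3 members over 2-fold higher at PD60 was 16 with TMM scaling (18.6% of all hairpins). It was 6 when scaled without the 50 most abundant hairpins (6.26%), 1 for late against early column means (2.46%) and 0 at PD55 (2.92%). The 82 lower were 50 with TMM scaling (64.8% of all hairpins) and 48 at PD45 (63.2%). The median of -5.52 was -1.58 with TMM scaling, -4.72 without the 50 most abundant, -3.05 and -7.62 with pseudocounts of 10 and 0.1 CPM, and -4.18 for late against early means. With PD55, PD50 and PD45 as end points it was -4.39, -3.46 and -1.45. All hairpins moved alike, from -5.86 to -1.87 with TMM scaling.

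Of trend calls with TMM scaling, 10 rising and 20 falling, total counts gave 1 and 68. Without PD45 they were 5 and 9 of 64 members tested, beside 223 and 354 of 2427 hairpins. Without PD55 they were 6 and 12 of 79, beside 225 and 639 of 3115. Without PD40, 7 of 64 fell, beside 270 of 2419, and without PD50 13 of 79, beside 691 of 3107. DESeq2's Wald test gave 13 and 21 of 79, beside 473 and 944 of 3116.

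Means changed sign with TMM scaling for C16orf53 (0.40), MEN1 (2.93), MLL3 (0.36), SETD1A (0.10) and SETD7 (0.55), and as the log2 ratio of summed CPM for MEN1 (0.86) and SETD7 (3.18), where 1 hairpin each held most tags. Scalings and pseudocounts of 0.1 CPM for genes and hairpins beyond those planned were chosen after seeing the data.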

Other observations

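Proteins that read methylated H3K4 were taken as a list of names, of which 9 genes were in the table with 45 hairpins. At PD60, 0 were over 2-fold higher, beside 2.28% of all hairpins, 42 were lower, beside 95.3%, and 3 were within 2-fold, beside 2.43%. The median was -5.81, beside -5.86. TAF3, the TFIID subunit whose PHD finger binds trimethylated H3K4, had the highest mean, -3.68 (SD 3.48, 5 hairpins), with 3 hairpins over 2-fold lower. ING4, a subunit of a histone acetyltransferase complex, followed at -3.94 (SD 1.91). The lowest was ING3, a subunit of the TIP60 complex, at -7.84 (SD 0.85). BPTF, the reader subunit of the NURF remodeller, stood at -6.17 (SD 0.73) and CHD1 at -6.47 (SD 1.21).

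Cell cycle genes tied to menin by earlier work were taken as a list of names. CDKN1B, CDKN2C, CDK4 and CDK2 were on it but had no hairpin naming that gene alone. The 2 genes with hairpins were CDKN1A, which encodes p21, and CDKN2A, the locus of p16. Of their 14 hairpins 1 was over 2-fold higher at PD60, beside 2.28% of all hairpins, and 13 were lower, beside 95.3%. The median was -4.96, beside -5.86. The means were -4.00 (SD 1.67, 7 hairpins) for CDKN1A and -5.36 (SD 4.20, 7 hairpins) for CDKN2A, and the higher hairpin was against CDKN2A.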
